A study of Mus musculus with 6 samples.

Results

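Arginase, polyamine and arginine supply genes were followed in group 2 innate lymphoid cells (ILC2s), lymphocytes of tissues that carry no antigen receptor and secrete type 2 cytokines. The 10 genes, Slc7a1, Arg1, Oat, Odc1, Azin1, Oaz1, Amd1, Srm, Sms and Sat1, were taken by symbol from the 27179 genes of the table, and each matched 1 row. Mouse ILC2s had been sorted through a Chat positive or a Chat negative gate, with 3 libraries per gate, and bulk RNA was sequenced after amplification with a kit for very small inputs. Chat is the gene of choline acetyltransferase, which synthesises acetylcholine. The strain, age, tissue, stimulus and the way Chat was detected were not given in the sources used here, and the labels do not say whether the libraries of a gate came from separate animals.

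Arginine enters lymphocytes through cationic amino acid transporters, and arginase splits it into urea and ornithine. Ornithine goes either to proline and glutamate, through ornithine aminotransferase in mitochondria, or to putrescine, through ornithine decarboxylase, the entry step of polyamine synthesis. Putrescine is extended to spermidine and spermine with aminopropyl groups from decarboxylated S-adenosylmethionine, and polyamines feed back on their own synthesis, uptake and breakdown. Mouse ILC2s are known as a source of arginase 1 in the lung.

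Part of this feedback is read by ribosomes and not by RNA counts, and the short sequences that carry it are shown because a read count cannot see them. The first is the antizyme frameshift site in the Oaz1 coding sequence at chr10:80828280-80828309, plus strand, GRCm38, from the GENCODE transcripts. Its capitals mark an in-frame serine codon and the stop codon after it, which follow 67 codons, and ribosomes must shift frame there to make full-length antizyme, more often when polyamines are abundant. The second is a short upstream reading frame of the Amd1 messenger RNA at chr10:40302155-40302175, minus strand, GRCm38.p6, from RefSeq. Its capitals mark the start and stop codons, and in mammals its peptide stalls ribosomes when polyamines are high.
Oaz1 frameshift site: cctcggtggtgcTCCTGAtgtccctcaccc
Amd1 upstream frame: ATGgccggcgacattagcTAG

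The libraries held 37154269 to 50361306 counts in the Chat positive gate and 42503612 to 44061509 in the Chat negative gate. Levels are given in CPM, the usual depth-scaled unit, with library sizes scaled by the trimmed mean of M values (TMM). Chat, by which the cells were sorted, stood at 187 ± 17.9 CPM in Chat positive and 20.2 ± 5.48 CPM in Chat negative cells (SD, n = 3 each), a log2 change of 3.21 (SE 0.21, edgeR adjusted p = 0.0174). All 10 ILC2 markers listed were measured, with a summed level of 18117 to 24290 CPM in Chat positive and 16327 to 18987 CPM in Chat negative libraries. Of 12 macrophage markers, relevant because macrophages also make arginase 1, 9 had fewer than 10 counts in every library, among them Lyz2, C1qa and C1qb, and their list summed to 8.43 to 23.4 CPM in Chat positive and 8.07 to 23.8 CPM in Chat negative libraries. Most of that sum was Cd68, a lysosomal protein, with 21.3, 6.85 and 19.0 CPM in Chat positive 1, 2 and 3 and 19.8, 6.99 and 20.5 CPM in Chat negative 1, 2 and 3. Retnla and Marco had 0 counts in all 6 libraries. Markers of T cells summed to 18.3 to 44.8 CPM in Chat positive and 24.0 to 45.1 CPM in Chat negative libraries, of granulocytes to 1.48 to 12.9 and 1.08 to 13.5, of B cells to 68.6 to 85.6 and 66.2 to 74.2, and of epithelium to 34.4 to 58.3 and 37.3 to 89.6, and the part of such cells in the levels was not tested. In bulk samples, fewer cells that express a gene and less RNA per cell cannot be told apart.

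Each gene was compared between the gates with edgeR's quasi-likelihood F-test, fitted and adjusted by Benjamini-Hochberg over 12967 genes, at a threshold of 5%. None of the 10 genes passed it between Chat positive and Chat negative ILC2s, and over all tested genes 0.00771% did, which is Chat alone. Without adjustment, p was under 0.05 for 1 of the 10, Sms, and for 2.43% of all tested genes. DESeq2, which called 0.0308% of all tested genes, and limma-voom also called 0 of the 10. The 10 log2 changes, Chat positive minus Chat negative, had a median of 0.068, beside 0.0044 over all tested genes, and 7 lay above 0. All 10 passed the low-count filter. The fit with the replicate number as a block, which treats libraries with the same number as pairs, also called 0 of the 10, with a background of 0.339%. In that edgeR fit the unadjusted p was under 0.05 for 3 of the 10, Arg1, Sms and Sat1, and for 2136 of the 12967 tested genes. DESeq2 with that block called 2 of the 10, Arg1 and Sat1, where it called 3.67% of all tested genes.

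**Figure D1:**
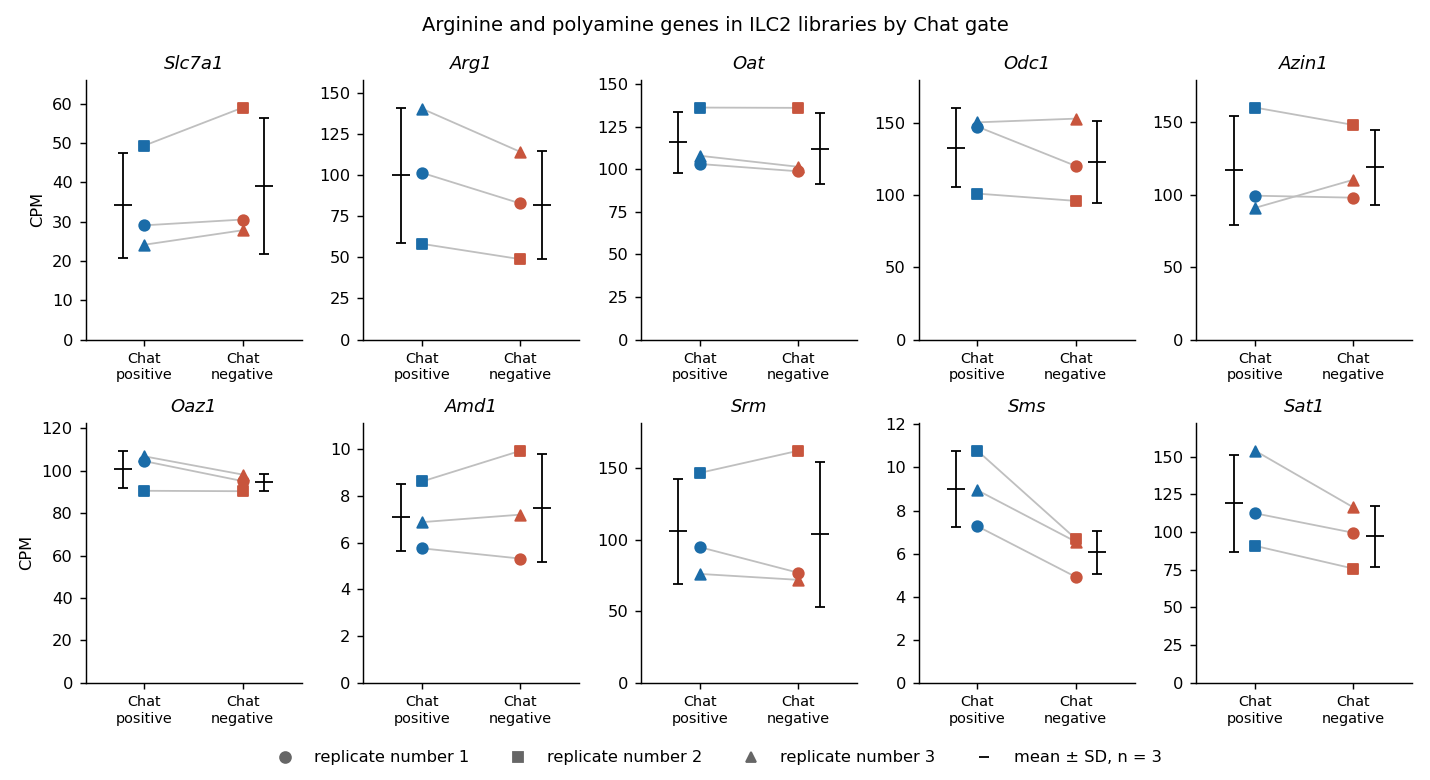
Level of each of the 10 genes in CPM on axes that start at 0, with Chat positive libraries on the left and Chat negative libraries on the right. Symbols mark the replicate number, grey lines join libraries with the same number, and black bars give mean ± SD over 3 libraries. Sms is the gene whose gates do not overlap, and in each panel number 2 is the highest or the lowest library of both gates.

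Slc7a1 encodes CAT1, the main arginine importer of many cells. It had 29.1, 49.4 and 24.1 CPM in Chat positive 1, 2 and 3, against 30.6, 59.1 and 27.8 CPM in Chat negative 1, 2 and 3. The gates overlapped, library 2 was the highest of each gate, and the Chat positive library was the lower for 3 of 3 numbers. The change, Chat positive minus Chat negative, was -0.19 on the log2 scale (SE 0.37, edgeR adjusted p = 1.00), with a 95% interval from -1.07 to 0.69.

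Arg1, the cytosolic enzyme that degrades arginine, had 102, 58.3 and 141 CPM in Chat positive 1, 2 and 3. In Chat negative 1, 2 and 3 it had 82.9, 48.9 and 114 CPM. The gates overlapped, and the libraries of a gate differed from each other more than the gates did, while the ratio of Chat positive to Chat negative was 1.23, 1.19 and 1.23 for numbers 1, 2 and 3. Its log2 change was 0.29 (SE 0.39, edgeR adjusted p = 1.00), and -0.053 without Chat positive 3. With the block the change was 0.28 on the log2 scale (SE 0.060), and the adjusted p from edgeR was 0.102. DESeq2 with the same block called it (log2 change 0.27, adjusted p = 0.0134), and over 21 alternatives its adjusted p lay between 0.0134 and 1. Arg2, the mitochondrial arginase, had at most 0.162 CPM in any library and was too low to test.

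Oat, the mitochondrial aminotransferase that passes ornithine toward proline and glutamate, had 103, 136 and 108 CPM in Chat positive 1, 2 and 3, against 98.7, 136 and 101 CPM in Chat negative 1, 2 and 3. Library 2 was the highest of each gate, and the ratio between the gates was 1.04, 1.00 and 1.06 for numbers 1, 2 and 3. Its log2 change was 0.046 (SE 0.17, edgeR adjusted p = 1.00), with an interval from -0.36 to 0.45. An annotated transcript of Fgfr2 on the same strand spans Oat.

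Odc1, ornithine decarboxylase, had 147, 101 and 150.2 CPM in Chat positive 1, 2 and 3, against 120.1, 95.9 and 153 CPM in Chat negative 1, 2 and 3. The gates overlapped, with a log2 change of 0.11 (SE 0.22, edgeR adjusted p = 1.00), and library 2 was the lowest of each. Its annotated coding transcript shares 42.2% of its 50-base stretches with transcripts of 16 other annotated genes, so its count depends on how reads with several matches were treated, which is not given in the sources used here.

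Antizyme, from Oaz1, binds ornithine decarboxylase and sends it to the proteasome. Oaz1 had 105, 90.6 and 107 CPM in Chat positive 1, 2 and 3, against 95.1, 90.4 and 98.2 CPM in Chat negative 1, 2 and 3. Its log2 change was 0.090 (SE 0.11, edgeR adjusted p = 1.00), and the interval from -0.16 to 0.34 was the narrowest of the 10. Oaz1 shares 52.2% of its 50-base stretches with the pseudogene Oaz1-ps, which stood at 3.89 ± 0.377 CPM in Chat positive and 4.38 ± 0.502 CPM in Chat negative cells (n = 3 each).

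Azin1 encodes antizyme inhibitor, a relative of ornithine decarboxylase without its enzyme activity that binds antizyme and so spares the enzyme. It had 99.3, 160.1 and 90.9 CPM in Chat positive 1, 2 and 3, against 97.9, 148 and 110.3 CPM in Chat negative 1, 2 and 3. Here library 2 was the highest of each gate, the reverse of Odc1. The log2 change was -0.024 (SE 0.25, edgeR adjusted p = 1.00). Per kilobase of transcript, the ratio of Odc1 to Azin1 was 3.27, 1.39 and 3.65 in Chat positive 1, 2 and 3, and 2.71, 1.43 and 3.06 in Chat negative 1, 2 and 3. This ratio did not separate the gates (two-sided exact permutation p = 0.6, smallest possible 0.1), while in both gates it was lowest in library 2. The permutation ignored the replicate number, so it cannot judge a difference within pairs. A long non-coding gene, Gm49077, overlaps the start of Azin1 on the opposite strand, and without a known strand setting its reads cannot be told apart there.

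**Figure D2:**
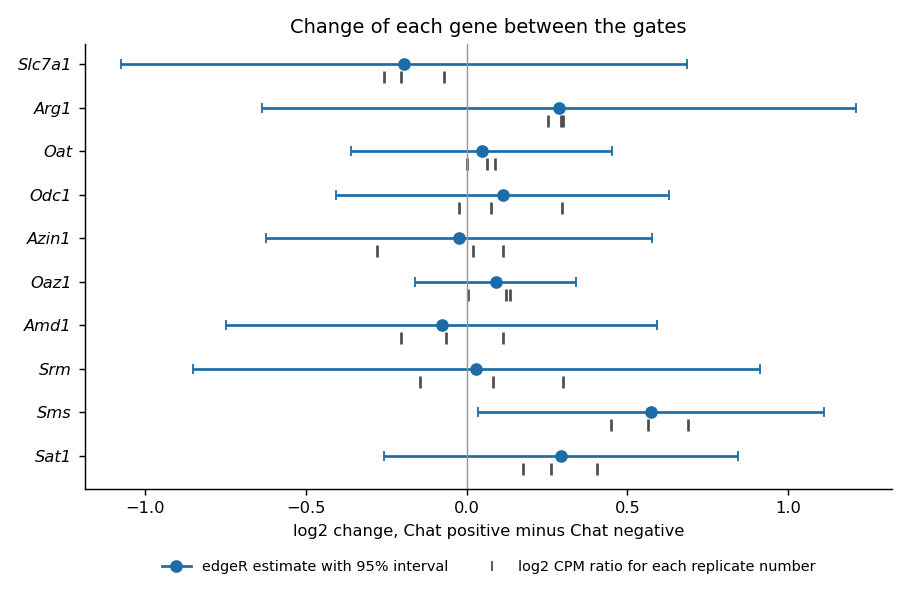
Log2 change of each gene, Chat positive minus Chat negative, with the edgeR estimate as a point and its 95% interval as a bar; ticks below give the log2 CPM ratio for each replicate number. The interval of Sms lies above 0 before adjustment, and those of the other 9 genes cross 0; the ticks of Arg1 lie close together, at ratios of 1.19 to 1.23.

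Amd1 decarboxylates S-adenosylmethionine to supply aminopropyl groups. It had 5.76, 8.62 and 6.88 CPM in Chat positive 1, 2 and 3, against 5.32, 9.94 and 7.20 CPM in Chat negative 1, 2 and 3. The gates overlapped, with a log2 change of -0.078 (SE 0.28, edgeR adjusted p = 1.00). Its level is uncertain, since 87.6% of its 50-base stretches occur in transcripts of 8 other genes and 86.1% in Amd2 alone, which had 0.468 ± 0.0201 CPM in Chat positive and 0.333 ± 0.153 CPM in Chat negative cells (n = 3 each).

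Srm, spermidine synthase, had 94.8, 147 and 76.0 CPM in Chat positive 1, 2 and 3, against 76.9, 162 and 71.9 CPM in Chat negative 1, 2 and 3. Library 2 again was the highest of each gate, and the log2 change was 0.030 (SE 0.37, edgeR adjusted p = 1.00).

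Sms encodes spermine synthase, the next enzyme of the pathway. It had 7.27, 10.8 and 8.94 CPM in Chat positive 1, 2 and 3, against 4.92, 6.69 and 6.55 CPM in Chat negative 1, 2 and 3. It was the single gene of the 10 whose gates did not overlap, where 4.53% of all tested genes lay higher without overlap and 8.14% did not overlap in either direction. The lowest Chat positive library stood just above the highest Chat negative one. Its fold difference was 1.49, with a log2 change of 0.57 (SE 0.23) and an interval from 0.036 to 1.11, an unadjusted p of 0.0397 and an edgeR adjusted p of 1.00, so it did not pass. The values rest on 269, 555 and 360 counts in Chat positive 1, 2 and 3, and on 208, 290 and 283 counts in Chat negative 1, 2 and 3. Sms shares 28.7% of its 50-base stretches with its pseudogene Sms-ps, which had 0.312 ± 0.0391 CPM in Chat positive and 0.287 ± 0.0572 CPM in Chat negative cells.

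Promoter windows, from 250 bases before to 50 after a gene start, were at hand for 7 of the 10 genes, in 9 windows from RefSeq. They were searched for CACGTG, the letters of a canonical E-box, which read the same on both strands, because Odc1 is a textbook target of Myc, which binds such letters. Of the 9 windows 1 held it, that of the upstream Sms start at chrX:157492458-157492503, minus strand, GRCm38.p6, against 7.15% of all 32851 windows. The stretch is shown because its window held the motif, given in capitals, and a match of letters is not a binding site. The window of Odc1 itself did not hold the motif, but sequence outside the windows was not searched. Arg1, Azin1 and Srm had no window.
Sms promoter stretch: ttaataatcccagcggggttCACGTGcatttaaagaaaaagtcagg

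Sat1 acetylates spermidine and spermine, which marks them for export or oxidation. It had 112, 90.8 and 154 CPM in Chat positive 1, 2 and 3, against 99.5, 75.7 and 116 CPM in Chat negative 1, 2 and 3. The gates overlapped, while the ratio of Chat positive to Chat negative was 1.13, 1.20 and 1.32 for numbers 1, 2 and 3. On the log2 scale the change was 0.29 (SE 0.23, edgeR adjusted p = 1.00), 0.049 without Chat positive 3, and 0.28 with the block (SE 0.066, edgeR adjusted p = 0.108). DESeq2 with the block called it (log2 change 0.27, adjusted p = 0.0248), and over 21 alternatives its adjusted p lay between 0.0248 and 1. Arg1, Sat1, Oaz1, Oat and Sms, 5 of the 10, were higher in Chat positive cells for 3 of 3 numbers, as were 22.3% of all tested genes.

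Levels were compared between genes per kilobase of the longest coding transcript. In Chat positive cells Sat1 had 102 CPM per kilobase and Oaz1 94.0, followed by Srm at 79.1, Arg1 at 67.8, Odc1 at 60.1, Oat at 53.7 and Azin1 at 24.0. In Chat negative cells the order began with Oaz1 at 88.3 CPM per kilobase and Sat1 at 83.6, followed by Srm at 77.5, Odc1 at 55.7, Arg1 at 55.5, Oat at 52.1 and Azin1 at 24.4. Slc7a1 stood at 4.76 and 5.45 CPM per kilobase in Chat positive and Chat negative cells, Sms at 2.42 and 1.63, and Amd1 at 2.21 and 2.34. Neighbours among the first 6 genes of each order differed by less than the SD, over the libraries of that gate, of at least 1 of the pair. The low places of Amd1 and Sms, and those of Odc1 and Oaz1, carry the limit that their transcripts have copies elsewhere.

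The spread of 9 of the 10 genes, all but Sms, lay more between replicate numbers than between gates, as it did for 80.8% of all tested genes. Library 2 was the lowest of both gates for Arg1, Odc1, Oaz1 and Sat1, and the highest of both gates for Slc7a1, Oat, Azin1, Amd1, Srm and Sms, which together are 10 of 10. Over all tested genes it was the lowest in both gates for 29.6% and the highest in both for 31.2%. Relative to the mean of the other libraries, number 2 stood at 0.488 times for Arg1, 0.690 for Odc1, 0.691 for Sat1 and 0.894 for Oaz1. It stood at 1.94 times for Slc7a1, 1.93 for Srm, 1.55 for Azin1, 1.48 for Amd1, 1.32 for Oat and 1.26 for Sms. What the number marks (animal, day or sort) is not given in the sources used here, and number 2 was singled out after its values were seen.

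**Figure D3:**
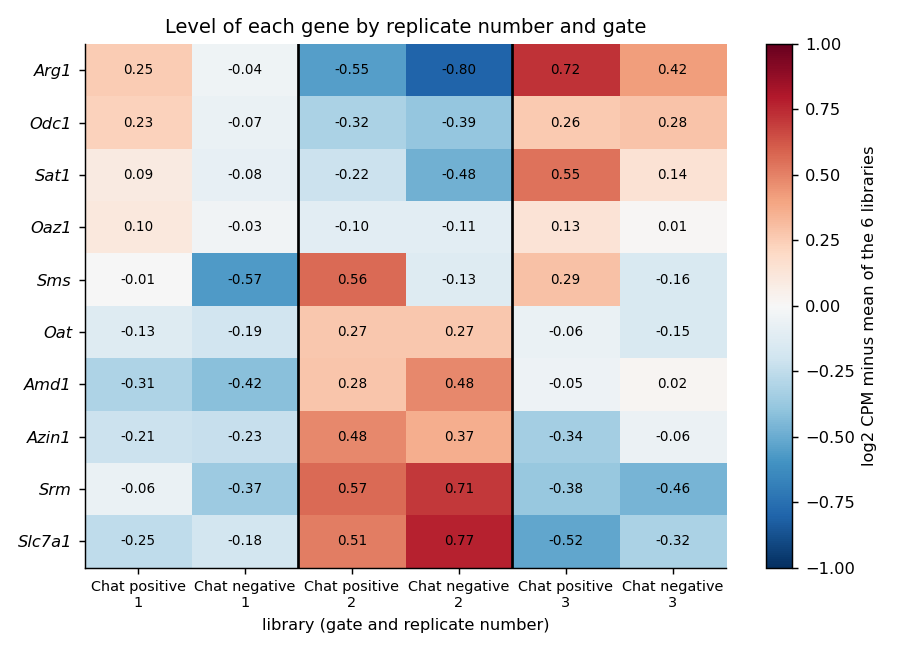
Log2 CPM of each gene minus its mean over the 6 libraries, in columns by replicate number with the Chat positive library left of the Chat negative one; red is above the gene's mean and blue below. Arg1, Odc1, Sat1 and Oaz1 are below their mean in both libraries of number 2, and Slc7a1, Srm, Azin1, Amd1 and Oat above it in both.

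A test of the replicate number in the fit with gate and number, with 2 degrees of freedom and added after the data were seen, found a difference between numbers for 8 of the 10 genes, where 32.5% of all tested genes passed. The edgeR adjusted p was 1.84e-05 for Arg1, 1.76e-04 for Slc7a1, 2.04e-04 for Srm, 6.58e-04 for Sat1, 0.00137 for Azin1, 0.00171 for Odc1, 0.00266 for Oat and 0.0382 for Amd1. Sms (0.134) and Oaz1 (0.189) did not pass. With limma-voom 7 of the 10 passed, where 29.9% of all tested genes did, and Amd1 did not (adjusted p = 0.0514); edgeR without robust dispersions passed 8, and 29.8% of all tested genes. Of the spread of log2 levels over the 6 libraries, the number took a median of 92.6% and the gate 3.97% over the 10 genes, against 67.2% and 9.66% over all tested genes; with more degrees of freedom the number takes more by construction. Sms was the exception, with 35.2% for the number and 62.9% for the gate. Of the 10 ILC2 markers, 7 differed between numbers by the same edgeR test; 6 of the 10 were lowest in library 2 of both gates, among them Gata3, Il1rl1 and Thy1, and 1 was highest, namely Il2ra, the high-affinity IL-2 receptor chain, at 4075, 5753 and 4134 CPM in Chat positive 1, 2 and 3 and 3618, 5775 and 3798 CPM in Chat negative 1, 2 and 3. Cd68, given above, was lowest in library 2 of each gate, like Arg1 and 29.6% of all tested genes. Adgre1, the other tested macrophage marker, was not lowest there in both gates. It had 2.05, 1.34 and 0.894 CPM in Chat positive 1, 2 and 3, and 3.95, 0.991 and 2.08 CPM in Chat negative 1, 2 and 3. The part of Cd68 in the Arg1 pattern was not tested.

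Genes most like 3 of the 10 were taken by the smallest mean absolute difference in centred log2 CPM over the 6 libraries, among 8376 genes with at least 10 CPM. For Arg1 the nearest named genes were Arl14ep (0.051), Zfp53 (0.058), Snhg5 (0.061) and Gramd1a (0.077), and a gene without a symbol in the reference was the fourth nearest. For Odc1 they were Rps18 (0.033), Tmed4 (0.036), Zswim4 (0.038), Arrdc3 (0.039) and Stx5a (0.039). For Slc7a1 they were Tox (0.034), Mcm4 (0.040), Mpp2 (0.053), Arhgap11a (0.059) and Hmgb2 (0.063). Mcm4, a helicase subunit of DNA replication, had 186, 314 and 155 CPM in Chat positive 1, 2 and 3, and 188, 342 and 174 CPM in Chat negative 1, 2 and 3.

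Of 60 other genes of arginine and polyamine metabolism found in the table, 46 passed the low-count filter and 0 passed the edgeR test between the gates (1 at an unadjusted p under 0.05, Smox, and 0 with DESeq2 or limma-voom), against 0.00771% of all tested genes. In this list 24 log2 changes lay above 0 and 22 below, with a median of 0.012. Gates did not overlap for 2 higher genes, Smox and Slc7a7, and 1 lower gene, Ass1, where 4.53% and 3.61% of all tested genes did so. By the number term, 19 of the 46 differed between replicate numbers, where 32.5% of all tested genes did. Log2 changes above 0 numbered 1 of 4 in arginine breakdown, 1 of 2 in arginine synthesis and 6 of 6 in carriers other than Slc7a1. In proline conversion they numbered 3 of 6, in antizyme relatives 0 of 3 and in methionine supply 7 of 9. They numbered 1 of 2 in polyamine oxidation, 0 of 2 in polyamine transport, 4 of 4 in hypusine genes, 1 of 3 in arginine sensing and 0 of 5 in regulators. Over all tested genes 6594 lay above 0 and 6373 below.

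Smox, the oxidase that turns spermine back into spermidine, had 455, 387 and 441 CPM in Chat positive 1, 2 and 3, against 359, 349 and 347 CPM in Chat negative 1, 2 and 3. All 3 Chat positive libraries lay above all 3 Chat negative ones. At 186 CPM per kilobase in Chat positive and 153 in Chat negative cells it stood above each of the 10 genes. Its log2 change was 0.28 (SE 0.099), with an unadjusted p of 0.0250, an edgeR adjusted p of 1.00 and, with the block, 0.0994. DESeq2 with the block called it (adjusted p = 0.00574), and over 21 alternatives its adjusted p lay between 0.00574 and 1. Paox, which oxidises acetylated polyamines, stood at 2.71 ± 0.438 CPM in Chat positive and 3.33 ± 0.883 CPM in Chat negative cells (n = 3 each).

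Among arginine and ornithine carriers other than Slc7a1, all 6 tested genes had a log2 change above 0, with none past the threshold. Their median was 0.28, and all 6 stayed above 0 under each scaling tried. Scaling multiplies all genes of a library by the same factor, so a kept sign is a weak check, here and in the lists below. With a library left out, 5 or 6 were above 0. Slc7a1 lay the other way, with a log2 change of -0.19, and was lower in Chat positive cells for each replicate number. Slc7a7, a light chain that exchanges cationic for neutral amino acids, had 5.57, 5.59 and 4.40 CPM in Chat positive 1, 2 and 3, against 3.92, 4.01 and 1.94 CPM in Chat negative 1, 2 and 3. The log2 change was 0.65 (SE 0.32, edgeR adjusted p = 1.00). Slc7a6, a related light chain, stood at 64.7 ± 6.35 CPM in Chat positive and 56.4 ± 4.84 CPM in Chat negative cells. Slc3a2, their common heavy chain, stood at 271 ± 63.1 and 261 ± 62.7 CPM in Chat positive and Chat negative cells. It was highest in library 2 of both gates, like Slc7a1 and 31.2% of all tested genes.

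Arginine can also be rebuilt from citrulline by Ass1 and Asl. Ass1 had 26.4, 24.9 and 26.6 CPM in Chat positive 1, 2 and 3, against 27.7, 27.6 and 30.6 CPM in Chat negative 1, 2 and 3, without overlap (log2 change -0.14, SE 0.12, edgeR adjusted p = 1.00). Asl lay the other way, at 72.5 ± 6.41 CPM in Chat positive and 65.8 ± 3.33 CPM in Chat negative cells. The urea cycle genes Otc and Cps1 had at most 1 count in a library. Of the other genes listed under arginine breakdown and use, Gatm, the entry enzyme of creatine synthesis, stood at 8.88 ± 4.52 and 6.29 ± 1.91 CPM in Chat positive and Chat negative cells, and Ddah2 at 7.43 ± 1.14 and 8.17 ± 2.57. The nitric oxide synthase Nos2 had at most 0.189 CPM in any library.

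**Figure D4:**
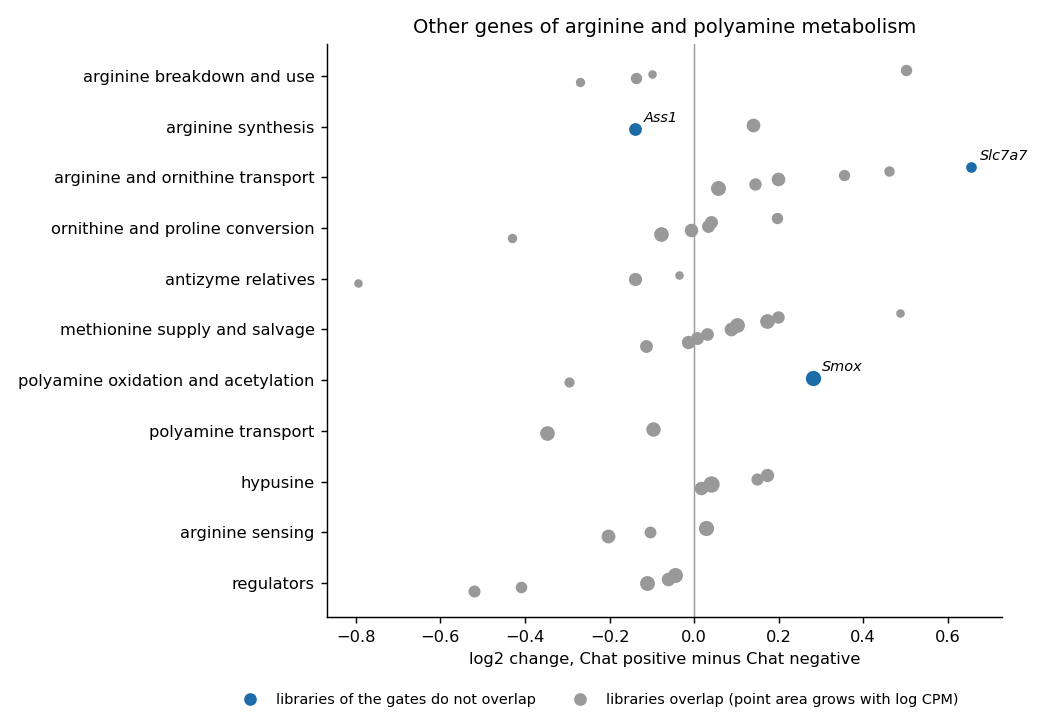
Log2 change, Chat positive minus Chat negative, of the 46 tested genes of arginine and polyamine metabolism outside the 10, in rows by function; each point is a gene, its area grows with log CPM, and blue points are genes whose libraries do not overlap between the gates. Smox and Slc7a7 lie to the right of 0 and Ass1 to the left, and no gene passed the threshold.

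In proline synthesis, Aldh18a1 stood at 194 ± 20.8 CPM in Chat positive and 206 ± 27.4 CPM in Chat negative cells, and Pycr1 at 7.79 ± 0.553 and 6.81 ± 0.884. Among antizyme relatives, Oaz2 stood at 40.7 ± 8.71 CPM in Chat positive and 44.8 ± 11.4 CPM in Chat negative cells, while Azin2 and Oaz3 averaged at most 0.429 CPM in either gate. Methionine supply held Mat2a, which makes S-adenosylmethionine, at 242 ± 32.1 and 226 ± 27.5 CPM in Chat positive and Chat negative cells, and its regulatory subunit Mat2b at 219 ± 34.8 and 194 ± 25.1. The polyamine pumps Atp13a3 and Atp13a2 stood at 171 ± 45.3 and 146 ± 23.0 CPM in Chat positive cells, and at 217 ± 34.4 and 156 ± 6.76 CPM in Chat negative cells. None of these differences exceeded the spread between libraries by the edgeR test.

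Spermidine is also the donor of hypusine, a modified residue of the translation factor Eif5a. Eif5a stood at 1482 ± 107 CPM in Chat positive and 1441 ± 168 CPM in Chat negative cells, and was highest in library 2 of both gates. The hypusine enzymes Dhps and Dohh stood at 48.2 ± 2.31 and 57.8 ± 9.58 CPM in Chat positive cells, and at 42.8 ± 3.53 and 57.2 ± 8.23 CPM in Chat negative cells. All 4 tested hypusine genes lay above 0 under each scaling tried, with a median log2 change of 0.095, but with a library left out 1 to 4 did. Castor1, a cytosolic arginine sensor of the mTORC1 pathway, stood at 345 ± 66.3 and 338 ± 61.7 CPM in Chat positive and Chat negative cells, and its relative Castor2 at 76.0 ± 16.0 and 87.4 ± 23.7. Of the regulators listed, Myc stood at 233 ± 32.4 and 252 ± 34.1 CPM, Stat6 at 270.5 ± 22.9 and 279 ± 30.4, and Mycn at 7.62 ± 1.64 and 10.1 ± 3.57 (Chat positive and Chat negative, SD, n = 3 each). All 5 regulators lay below 0 under each scaling tried, with none past the threshold, and 3 to 5 did with a library left out. Myc was lowest in library 2 of both gates, like Odc1 and 29.6% of all tested genes. Of the 10 genes 4 were lowest there and 6 highest, and a link to Myc was not tested.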

How the data were processed

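Read counts by Entrez gene, 1 column per library, are what the authors deposited; they are whole and their totals differ between libraries, so they were taken as not normalised. Per the submitters' processing notes, CASAVA 1.8.2, STAR 2.3.0 and the mm10 build were used; the counting program and strand setting were not given in the sources used here. Symbols came from RefSeq's genes of assembly GRCm38.p6 for 25275 of 27179 IDs; the other 1904 held at most 0.222% of a library's counts and stayed in. Genes passing filterByExpr (12967) were scaled by TMM and tested with edgeR 4.0.16 in R 4.3.3, two-sided; limma 3.58.1 and DESeq2 1.42.0 were alternatives. Intervals are 95% intervals of the edgeR fit, with the SE that its F statistic implies. Levels per kilobase used the longest coding GENCODE vM21 transcript (chosen after the longest one of Oaz1 proved to keep introns), and 50-base stretches were matched exactly on both strands of the GENCODE transcripts. Replicate libraries of a gate differed beyond sampling noise (smallest chi-square over its degrees of freedom 31.5). P-values measure the spread between these libraries, which may be technical. Same-numbered libraries deviated together, at a correlation over genes of 0.29 for number 1, 0.67 for number 2 and 0.43 for number 3, so the numbers were treated as pairs in the block. Chat positive 3 also correlated with Chat negative 1 (0.30) and Chat positive 1 with Chat negative 3 (0.20), while pairs that crossed number 2 with another were negative (-0.54 to -0.34), so it is mainly number 2 that is set apart; no label gives the pairing.

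The members and lists were chosen with earlier results of these data known. Text names the 10 genes, the 2 most abundant genes and the gene with the smallest p in each pathway sublist, and the 5 nearest genes in pattern; Mcm4, Il2ra and the listed genes near 0 were given values after they were seen, and 1 gene that this rule names is not reported here. Alternatives were other scalings and filters, the block, other tests and left-out libraries.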

Additional observations from a re-analysis of the deposited data

How the results depend on the processing

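None of the 10 genes was called under RLE, upper-quartile or library-size scaling, other filters, edgeR without robust dispersions, DESeq2, limma-voom, a 10% threshold or any left-out library. The replicate block in edgeR gave 44 called genes and 0 of the 10, and Chat was not among the 44 (adjusted p = 0.0961); without robust dispersions the block gave 1. DESeq2 called 4 genes, and with the replicate block 476 genes, 2 of the 10 (Arg1 and Sat1) and 1 pathway gene (Smox). Leaving out a library, or both libraries of a number, gave 0 to 2 called genes in all, the 2 without number 2, and 0 of the 10 each time. The call of Chat was lost without Chat positive 1 or 3 or Chat negative 1 or 3. It was also lost without both libraries of number 1 or of number 3.

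In those fits, log2 changes ran from -0.053 (without Chat positive 3) to 0.60 (without Chat negative 3) for Arg1, from -0.039 to 0.30 for Odc1, from -0.32 to 0.17 for Azin1, from -0.27 to 0.18 for Amd1, from -0.28 to 0.51 for Srm, from -0.089 to 0.21 for Oat and from -0.56 to 0.23 for Slc7a1, so each of these directions depends on which libraries are kept. Sms (0.42 to 0.70), Sat1 (0.049 to 0.45) and Oaz1 (0.030 to 0.16) kept their sign in all of them. Arg1 changed sign in 1 fit, without Chat positive 3, and Slc7a1 in 1 fit, without Chat negative 2. Either fit leaves a replicate number with a library in 1 gate only. Both genes kept their sign when both libraries of a number were left out. The number term called 8, 7 and 8 of the 10 with edgeR, limma-voom and edgeR without robust dispersions. Each of the 10 had at least 208 counts in every library, and the part of depth was not tested.

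Among the other pathway genes named, those whose sign changed with a library left out ran from -0.36 to 0.10 for Ddah2, -0.15 to 0.27 for Slc3a2, -0.17 to 0.021 for Aldh18a1, -0.33 to 0.026 for Oaz2, -0.60 to 0.46 for Azin2, -0.012 to 0.20 for Mat2a, -0.022 to 0.14 for Eif5a, -0.12 to 0.14 for Dohh, -0.11 to 0.18 for Castor1 and -0.13 to 0.028 for Stat6. Azin2, at low counts, changed sign with the replicate block (0.064, also without robust dispersions), with limma-voom (0.13, and 0.041 with the block) and with DESeq2 and the block (0.070). Smox ran from 0.23 to 0.35, Slc7a7 from 0.38 to 0.82 and Ass1 from -0.18 to -0.093. The 5-CPM filter removed Slc7a7, Azin2, Oaz3 and Paox.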

Other observations

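After gate and replicate number were taken out, the spread of Arg1 left over was 0.0391% of its total, a share that 0.409% of all tested genes matched or undercut, beside a median of 12.6% over all tested genes. This was noticed after the values were seen. For Slc7a1 the share was 0.697% and for Oat 0.872%, which 6.32% and 7.77% of all tested genes matched or undercut.

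Per kilobase of transcript, the ratio of Srm to Sat1, a synthesis gene to a breakdown gene of spermidine, was 0.732, 1.40 and 0.429 in Chat positive 1, 2 and 3, and 0.671, 1.86 and 0.537 in Chat negative 1, 2 and 3. It was highest in library 2 of both gates and did not separate the gates (two-sided exact permutation p = 0.8, smallest possible 0.1). This permutation too ignored the replicate number, so it cannot judge a difference within pairs.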
